A study of Mus musculus with 4 samples.

Results

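The alpha-arrestin genes Arrdc1, Arrdc2, Arrdc3 and Arrdc4 and their relative Txnip were followed in chromatin-bound RNA of C2C12 myotubes, a mouse skeletal muscle line fused into multinucleated cells. They were taken by gene symbol from the deposited table, in which 5 of 23282 distinct features are members, and all 5 had enough reads to be tested. The cells of both groups were C2C12 cultures of one line, labelled as female, differentiated to myotubes and deprived of steroids. One group received vehicle for 2 h and the other 1 µM dexamethasone, a synthetic glucocorticoid, for 2 h, with 2 libraries each. RNA was taken from the washed chromatin pellet, a fraction meant to hold transcripts still attached to their template rather than the messenger pool of the cell. How far the counts follow such transcripts was not tested. Nothing in the labels says that the libraries came from separate cultures, so the p-values measure only the spread between these libraries, which may be technical.

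Alpha-arrestins are cytoplasmic adaptor proteins with the arrestin fold. Through PPxY motifs in their tails most of them recruit ubiquitin ligases of the NEDD4 family to receptors and transporters, which are then taken up from the cell surface and sorted. TXNIP also binds thioredoxin and limits glucose uptake, and its gene and Arrdc4 are classical targets of the glucose-sensing factor MondoA, encoded by Mlxip. In muscle, Txnip is best known as a brake on glucose use.

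Total counts per library ran from 19631435 to 88596296. Fkbp5, a co-chaperone gene and a standard glucocorticoid target, had 21.5 and 21.6 scaled CPM (counts relative to the library's total after TMM scaling) under vehicle and 1020 and 697 after dexamethasone, so the labelled treatment was visible in both treated libraries. All 14 myotube markers were tested, with 0 called and a median log2 fold change of 0.04. Their summed level was 130000 and 126000 scaled CPM in the replicate 1 libraries of vehicle and dexamethasone, against 46200 and 45100 in the replicate 2 libraries. Most of that sum was Ttn, the titin gene, and without it the values were 12200 and 12500 against 5130 and 5210. Replicate 1 was above replicate 2 in both groups in 13 of the 14 markers, though Mymk, a fusion gene, was nearly level (176 and 173, then 208 and 208), and Mymx went the other way (8.9 and 11.6, then 9.88 and 15.6). The 11 markers of fat, endothelial, blood, epithelial and neural cells summed to between 5.94 and 11.4 scaled CPM in every library. Of these, Tubb3 had 6.12 and 2.32 under vehicle and 0.934 and 2.74 after dexamethasone. Cd68 had 3.59 and 3.43, then 3.87 and 2.92, and Pecam1 had 1.13 and 1, then 0.734 and 1.11. The rest were too low to be tested, and Epcam was at 0 throughout. In such cultures, fewer cells of a type and less RNA per cell cannot be told apart.

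Arrdc2 was the member with the clearest difference after dexamethasone, with a mean 4.28 times that of vehicle and no overlap between the groups. Arrdc4, the least abundant member, was lower in both treated libraries at 0.71 of the vehicle mean. Arrdc3 had a treated mean 1.46 times the vehicle mean, but its libraries overlapped between the groups, as did those of Arrdc1 and Txnip. By edgeR's quasi-likelihood test with Benjamini-Hochberg adjustment over 13285 tested genes, 0 of the 5 members passed an adjusted p of 0.05, where 0.0376% of all genes were called higher and 0% lower. Before adjustment, 1 member, Arrdc2, had p under 0.05, where 4.09% of genes were higher and 1.69% lower. The Wald test of DESeq2 picked out 1 member, again Arrdc2, beside 1.77% of all genes higher and 0.399% lower. So did the likelihood ratio test of edgeR, beside 1.83% higher and 0.339% lower, and limma-voom called 0 members and 0% of genes. Without vehicle replicate 2, edgeR called 1 member, Arrdc2, beside 0.613% of genes higher and 0.795% lower. Blocking on the replicate number in edgeR called 2 members, Arrdc2 and Arrdc3, beside 6.87% higher and 5.78% lower. In 1 member the lower treated library exceeded the higher vehicle library, as in 15% of tested genes, and in 1 member the treated pair was below the vehicle pair, as in 12.9% of tested genes. Counts of this size over 5 genes say nothing about the family as a group. The median log2 fold change was 0.21 over the members and 0 over all tested genes.

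**Figure D1:**
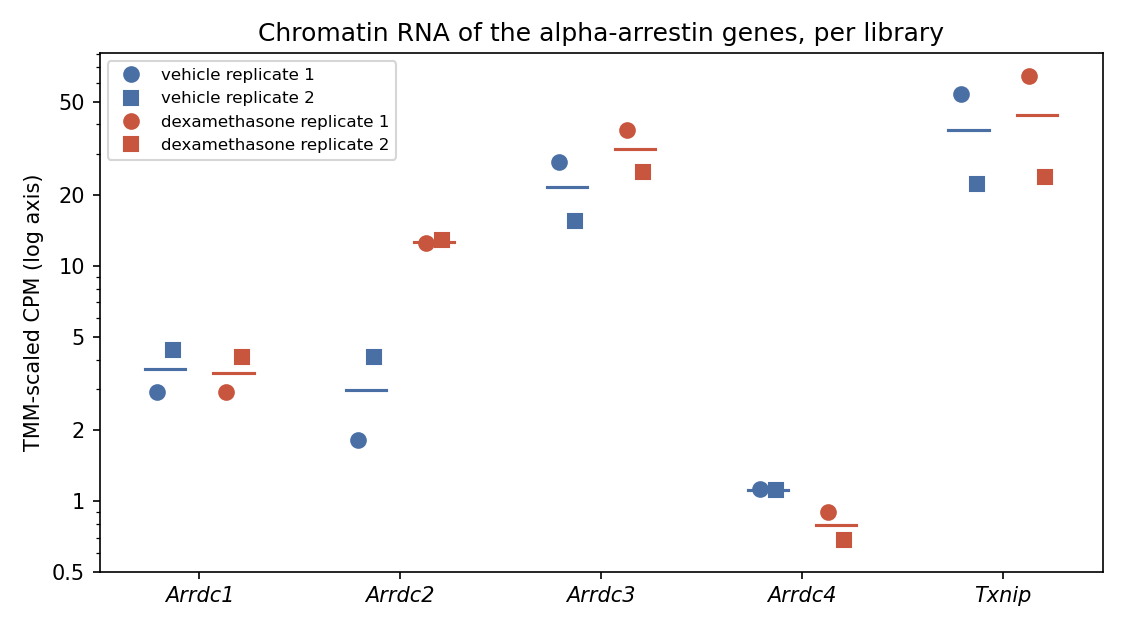
Scaled CPM (counts relative to the TMM-scaled library total, log axis) of the 5 genes in each of the 4 libraries, vehicle in blue and dexamethasone in red, with circles for replicate 1, squares for replicate 2 and a line at each group mean. Arrdc2 stands at 12.5 and 12.9 after dexamethasone, above both vehicle values, whereas in Txnip the replicate 1 libraries of both groups lie above the replicate 2 libraries.

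The upstream sequences of the 3 members with a CCAAT box at 2 or more places are shown because sequence is a feature that the counts do not use, and in it these members differ. The window is the 250 bases before the annotated start in RefSeq (GRCm38.p6, whereas the submitters' processing notes name mm9), and all 5 members had one. Capitals mark matches to any of the searched motifs on either strand. The motifs were chosen after the windows had been seen. They were the glucocorticoid receptor palindrome (AGAACA, any 3 bases, TGTTCT), its half-site AGAACA, the carbohydrate response element (CACGNG, any 5 bases, CACGNG), the E-box CACGTG, the FoxO site GTAAACA and the CCAAT box, which reads ATTGG on the other strand. The half-site lies inside the palindrome, and an E-box can form part of a carbohydrate response element.
Arrdc2, chr8:70839721-70839970, minus strand: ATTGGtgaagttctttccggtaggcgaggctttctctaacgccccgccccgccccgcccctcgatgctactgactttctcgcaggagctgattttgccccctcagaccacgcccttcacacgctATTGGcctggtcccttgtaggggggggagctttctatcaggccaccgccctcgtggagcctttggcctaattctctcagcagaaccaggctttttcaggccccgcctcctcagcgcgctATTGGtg
Arrdc4, chr7:68749239-68749488, minus strand: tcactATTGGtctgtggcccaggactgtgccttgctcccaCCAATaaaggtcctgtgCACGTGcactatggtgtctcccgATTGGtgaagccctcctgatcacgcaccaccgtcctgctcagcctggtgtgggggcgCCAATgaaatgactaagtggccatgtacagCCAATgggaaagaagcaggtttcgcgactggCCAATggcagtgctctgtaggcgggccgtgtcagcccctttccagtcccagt
Txnip, chr3:96557707-96557956, plus strand: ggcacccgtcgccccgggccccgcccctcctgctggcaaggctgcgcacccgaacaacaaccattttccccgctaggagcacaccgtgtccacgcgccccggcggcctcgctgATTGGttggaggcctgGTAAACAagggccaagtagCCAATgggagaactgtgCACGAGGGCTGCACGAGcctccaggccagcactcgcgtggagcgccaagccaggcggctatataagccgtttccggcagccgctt

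The Txnip window holds a carbohydrate response element from position -85 to -69, a motif found in 15 of 32851 mouse windows (0.0457%). A FoxO site lies at -121 to -115, a motif held by 3.17% of windows. Between and beside them are CCAAT boxes at -137 and -102, the box being the binding sequence of the factor NF-Y. Arrdc4 has no match to the full carbohydrate element and has an E-box at -193 to -188, which 6.02% of windows share. Its window holds 6 CCAAT boxes, a number reached by 19 of 32851 windows (0.0578%). Arrdc2 has 3 CCAAT boxes, at -250, -126 and -7, a number reached by 2.79% of windows. The first and the third of the 3 Arrdc3 windows overlap and share 1 such box, and the single Arrdc1 window has none, while 33.8% of all windows hold at least 1. No member has the receptor palindrome in its window, which is found in 0.00913% of windows, nor the half-site, found in 16.1%. A match is a run of letters and was not tested as a binding site, and the windows leave out more distant sequence.

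**Figure D2:**
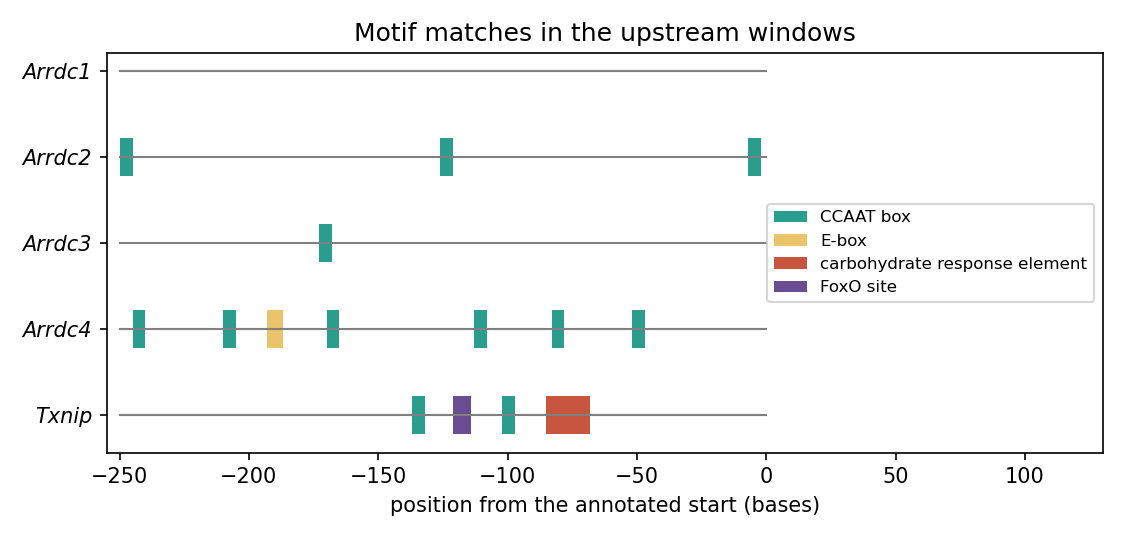
Positions of motif matches in the 250 bases before the annotated start of each gene, the first of 3 windows for Arrdc3 (x axis, bases from the start), with CCAAT boxes in green, the E-box in yellow, the carbohydrate response element in red and the FoxO site in purple. Arrdc4 carries 6 CCAAT boxes, Txnip has 2 of them around its FoxO site, and Arrdc1 shows no match.

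Levels were compared between genes per kilobase of exon, as scaled CPM per kb over the union of annotated exons. Whether the authors' counts include introns is not stated. Under vehicle the order was Txnip at 12.2 ± 7.07 (SD, n = 2), Arrdc3 at 3.45 ± 1.38, Arrdc1 at 1.45 ± 0.416, Arrdc2 at 0.918 ± 0.5 and Arrdc4 at 0.276 ± 0.00345 scaled CPM per kb. Only Txnip exceeded the median of 4.45 over tested genes, and its level stood above 76% of them, against 9.5% for Arrdc4. Arrdc1 was above Arrdc2 within each vehicle library, at 1.15 against 0.564 and 1.74 against 1.27, but their values overlapped across the 2 libraries. The other neighbours in the order did not overlap under vehicle.

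After dexamethasone the order per kb was Txnip at 14.1 ± 9.1, Arrdc3 at 5.03 ± 1.43, Arrdc2 at 3.93 ± 0.0913, Arrdc1 at 1.4 ± 0.341 and Arrdc4 at 0.196 ± 0.0377 (SD, n = 2 each). Arrdc2 thus stood above Arrdc1 in both treated libraries, and it went from above 21.7% of tested genes under vehicle to above 46.6% of them. Arrdc3 was above Arrdc2 only narrowly in one library pair, with 6.04 and 4.02 against 3.86 and 3.99 scaled CPM per kb. Over the whole gene span, a length chosen after seeing the data, the treated means were 2.76 for Arrdc2 and 2.49 for Arrdc3, so the order of this pair depends on the length used. The same holds for Arrdc1 and Arrdc2 under vehicle, at 0.367 and 0.646 per kb of span.

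Arrdc2 (ENSMUSG00000002910), an alpha-arrestin whose cargo is less studied than that of its relatives, had 34 and 156 counts in vehicle replicates 1 and 2 and 374 and 1204 in dexamethasone replicates 1 and 2. In scaled CPM these were 1.82 and 4.11 against 12.5 and 12.9. The treated libraries were nearly equal, the vehicle libraries differed from each other, and every treated value was at least 3.04 times every vehicle value. Its log2 fold change was 2.06 (SE 0.413, 95% interval 0.97 to 3.16), with an unadjusted p of 0.00533 and an adjusted p of 0.306 by edgeR's quasi-likelihood test. Of all tested genes, 72 (0.542%) had a larger log2 fold change. It passed with DESeq2's Wald test (log2 fold change 2.06, adjusted p 0.000262) and in edgeR with a likelihood ratio test (2.07, adjusted p 0.000769). The adjusted p ran from 0.000262 to 0.543 over its 13 alternatives. The size depended on the vehicle library used, at 2.80 without vehicle replicate 2 (edgeR adjusted p 0.0178) and 1.63 without vehicle replicate 1 (adjusted p 0.235).

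Hmga2, a chromatin architectural gene listed among 9 markers of unfused or dividing myoblasts, also separated the groups, with 263 and 324 scaled CPM under vehicle and 779 and 791 after dexamethasone (log2 fold change 1.42, SE 0.161). It missed the threshold by edgeR's quasi-likelihood test (unadjusted p 0.000501, adjusted p 0.123) and passed it by DESeq2 (1.41, adjusted p 1.51e-08), by the likelihood ratio in edgeR (1.42, adjusted p 1.35e-07), with the replicate block (1.42, adjusted p 0.000196) and without vehicle replicate 2 (1.59, adjusted p 0.0311). Over its alternatives the adjusted p ran from 1.51e-08 to 0.236. The summed level of the 9 markers was 324 and 390 scaled CPM under vehicle and 826 and 846 after dexamethasone. Without Hmga2 it was 61.1 and 65.8 against 46.9 and 54.8. That lower sum does not describe most of these markers, since 8 of the 9 had a positive log2 fold change and only 1, Pax7, a negative one. Their median was 0.20, and 6601 of the 13285 tested genes were positive. Pax7, the satellite cell factor, had 32 and 39 against 17.9 and 22.9 (-0.80, SE 0.201, edgeR adjusted p 0.456), and the block alone called it (adjusted p 0.000881). The cell cycle gene Cdk1 overlapped (0.23, SE 0.307). By the quasi-likelihood test 0 of the 9 passed, and the part of these genes in the level of Arrdc2 was not tested.

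Genes beside Arrdc2 were examined in the GENCODE M21 annotation. Kcnn1, a potassium channel gene on the same strand just upstream, had 3.38 and 4.82 scaled CPM under vehicle and 4.67 and 5.44 after dexamethasone with overlap between the groups (log2 fold change 0.30, SE 0.276). Il12rb1, an interleukin receptor gene on the other strand, had 1.07 and 1.79 against 2.5 and 2.95, without overlap between groups (0.91, SE 0.369, unadjusted p 0.0621 and adjusted p 0.92 by edgeR). Neither passed the quasi-likelihood test over all genes, and Il12rb1 passed with the replicate number as a block (0.89, adjusted p 0.0465, against 0.643 or more in its other alternatives).

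Arrdc3 (ENSMUSG00000074794), known for the turnover of integrin beta 4, had 517 and 587 counts under vehicle and 1134 and 2353 after dexamethasone. The scaled values were 27.7 and 15.5 CPM against 37.8 and 25.2. In each group replicate 1 was higher, and vehicle replicate 1 lay above dexamethasone replicate 2, so the groups overlapped. Its log2 fold change was 0.55 (SE 0.364, 95% interval -0.42 to 1.51, edgeR unadjusted p 0.198, adjusted p 1), and 5.8% of tested genes had a larger value. Leaving out single libraries moved it between 0.19 (without vehicle replicate 2) and 1.02 (without vehicle replicate 1), in fits with unbalanced replicates. Matched by replicate number, the treated value was higher each time, at 37.8 against 27.7 and 25.2 against 15.5. With that number as a block, which is not said to pair libraries, edgeR gave 0.58 (unadjusted p 0.000402, adjusted p 0.0073). That fit called 6.87% of all tested genes higher. A long noncoding gene, 1700023H06Rik, overlaps Arrdc3 on the other strand in the annotation and was not analysed here.

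Txnip (ENSMUSG00000038393), the thioredoxin-binding member, had 999 and 848 counts under vehicle and 1920 and 2230 after dexamethasone. These correspond to 53.6 and 22.3 scaled CPM against 64.1 and 23.9. Replicate 1 was higher than replicate 2 by 2.4 times under vehicle and by 2.68 times after dexamethasone, far more than the groups differed. The log2 fold change was 0.21 (SE 0.634, 95% interval -1.47 to 1.89, edgeR unadjusted p 0.752, adjusted p 1), an interval that holds a rise or a fall of more than 2-fold. Its sign depended on single libraries, at -0.28 without vehicle replicate 2, -0.66 without dexamethasone replicate 1, 0.97 without vehicle replicate 1 and 0.76 without dexamethasone replicate 2. Each such fit leaves the replicates unbalanced, so these values carry the gap between replicates 1 and 2. By replicate number the treated value was higher each time, at 64.1 against 53.6 and 23.9 against 22.3. Blocking on that number, which is not said to pair libraries, edgeR gave 0.18 (unadjusted p 0.0432, adjusted p 0.177). Of the myotube markers given above, 13 of 14 were higher in replicate 1, as Txnip and Arrdc3 were, and their part in these levels was not tested.

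Txnip is overlapped on the other strand by the antisense gene Gm15441, and the strand setting of the counting is not stated. Gm15441 had 11 and 9 counts under vehicle and 12 and 40 after dexamethasone, with a log2 fold change of 0.09 (SE 0.585). Its count was at most 40 in any library, against at least 848 for Txnip. Without a stated strand setting, reads of the pair cannot be assigned with certainty. The hemojuvelin gene Hjv, a neighbour on the same strand, had 45.8 and 33 scaled CPM under vehicle and 38.8 and 28.5 after dexamethasone (log2 fold change -0.23, SE 0.25).

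Arrdc4 (ENSMUSG00000042659), the member most like TXNIP in its link to glucose uptake and whose many CCAAT boxes are printed above, had 21 and 42 counts under vehicle and 27 and 64 after dexamethasone. In scaled CPM these were 1.13 and 1.11 against 0.901 and 0.685. The vehicle libraries were nearly equal and both treated libraries lay below them. The log2 fold change was -0.51 (SE 0.363, 95% interval -1.47 to 0.46, edgeR unadjusted p 0.227, adjusted p 1). The 4 fits that each left out 1 library gave -0.70 to -0.31, with the smallest without dexamethasone replicate 2. Their shared sign follows from the lack of overlap between the groups and adds nothing to it.

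Arrdc1 (ENSMUSG00000026972), which drives the budding of small vesicles from the cell surface together with the ESCRT protein TSG101, had 54 and 166 counts under vehicle and 87 and 384 after dexamethasone. The scaled values of 2.9 and 4.37 CPM against 2.9 and 4.11 lay on top of each other, with replicate 2 above replicate 1 in each group. Its log2 fold change was -0.05 (SE 0.341, 95% interval -0.96 to 0.85, edgeR unadjusted p 0.881, adjusted p 1). The sign was the opposite without vehicle replicate 2 (0.29) and without dexamethasone replicate 1 (0.17). Those fits leave the replicates unbalanced, and replicate 1 was 0.662 of replicate 2 under vehicle and 0.706 of it after dexamethasone. The interval leaves room for a change of nearly 2-fold either way. Ehmt1, a histone methyltransferase gene beside it on the same strand, had 291 and 325 scaled CPM under vehicle and 285 and 322 after dexamethasone.

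**Figure D3:**
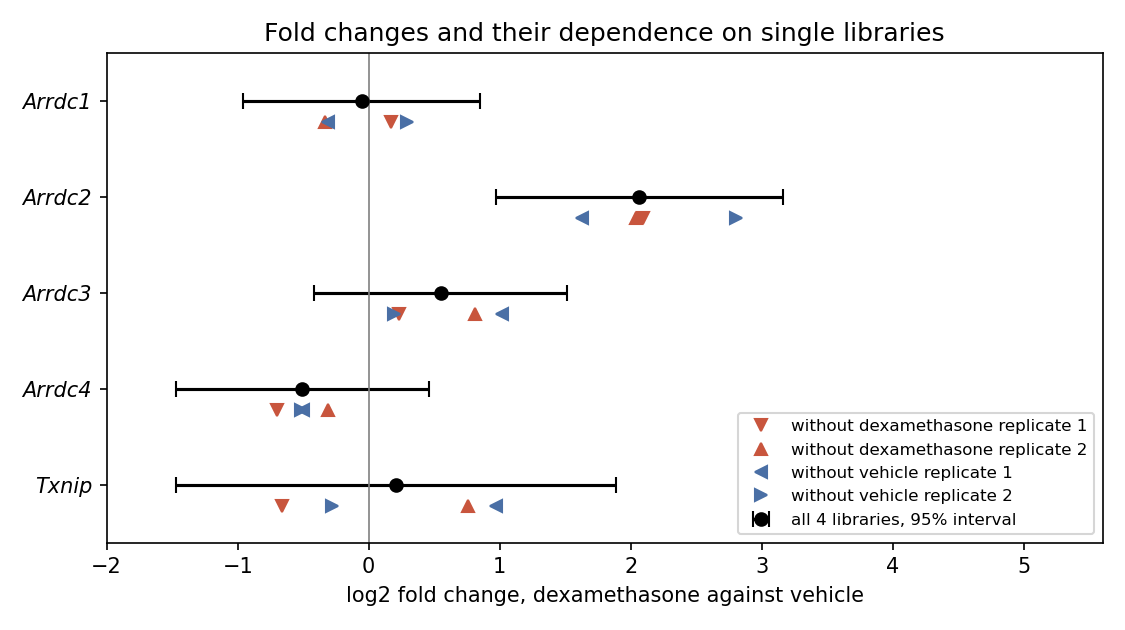
Log2 fold change of dexamethasone against vehicle (x axis) for each of the 5 genes, with black points and bars for the edgeR estimate and 95% interval from all 4 libraries and coloured triangles for the estimates that each leave out 1 library. Arrdc2 lies between 1.63 and 2.80 in every one of these fits, whereas Txnip and Arrdc1 fall on both sides of 0. A gene whose groups do not overlap, such as Arrdc2, keeps its side of 0 in such fits for that reason alone.

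The make-up of the family was read from counts alone, which needs no scaling between libraries. Txnip supplied 61.5% of the summed count of the 5 genes in vehicle replicate 1 (95% Wilson interval 59.1% to 63.8%) and 47.1% in vehicle replicate 2 (44.8% to 49.4%). After dexamethasone it supplied 54.2% (52.6% to 55.8%) and 35.8% (34.6% to 37%). The share of Arrdc2 was 2.09% (1.5% to 2.91%) and 8.67% (7.46% to 10.1%) under vehicle, against 10.6% (9.59% to 11.6%) and 19.3% (18.3% to 20.3%) after dexamethasone. Both treated shares of Arrdc2 exceeded both vehicle shares, although the lower treated interval overlapped the higher vehicle one. Arrdc3 held 31.8% (29.6% to 34.1%) and 32.6% (30.5% to 34.8%) under vehicle. After dexamethasone it held 32% (30.5% to 33.6%) and 37.7% (36.5% to 38.9%), and only the interval of replicate 2 lay apart from the rest. Arrdc4 gave at most 2.33% of the family in any library. The intervals cover at most the counting error within 1 library, not the spread between libraries. The reads carry no molecular identifiers, so repeated copies cannot be told apart and the intervals may be too narrow even for that error.

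**Figure D4:**
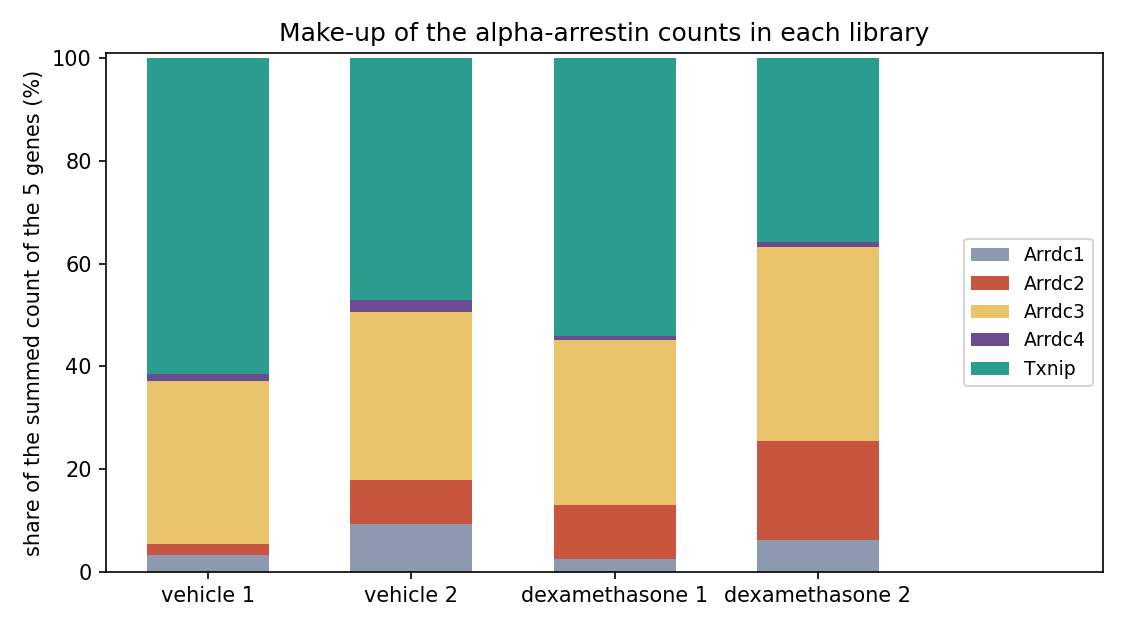
Share of each gene in the summed count of the 5 genes (stacked bars from 0 to 100%) for the 4 libraries. The red part, Arrdc2, makes up 2.09% and 8.67% of the vehicle bars and 10.6% and 19.3% of the dexamethasone bars.

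Partners of the alpha-arrestins were described from 7 lists with 75 gene names, of which 64 were tested. By edgeR's quasi-likelihood test 0 of these 64 passed the threshold in either direction, against 0.0376% and 0% of all tested genes. Before adjustment 3 were higher and 1 lower at 0.05, shares near the 4.09% and 1.69% of all tested genes. DESeq2 and the likelihood ratio test called 1 higher, Ddit4, where 1.77% and 1.83% of all genes were called higher, and limma-voom called 0. Both treated libraries lay above both vehicle libraries in 11 of the 64 and below them in 10, against 15% and 12.9% of all tested genes. The median log2 fold change over the 64 was -0.02.

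Among cargo of the family, 11 of 14 genes were tested, with a median log2 fold change of -0.04. The glucose transporter genes Slc2a1 and Slc2a4, whose products TXNIP helps to withdraw from the surface, were at -0.10 (SE 0.426) and 0.66 (SE 0.637), each with overlapping groups. Notch1 (-0.31, SE 0.164) was lower in both treated libraries, Egfr (-0.40, SE 0.292) overlapped, and Igf1r, the most abundant, was at 0.07 (SE 0.129).

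The list of TXNIP partners and energy sensors had 9 of 10 genes tested and a median of 0.08. Ddit4, whose product REDD1 restrains mTOR complex 1 and forms a complex with TXNIP, had 1.72 and 2.87 scaled CPM under vehicle and 7.21 and 7.91 after dexamethasone. Its log2 fold change was 1.70 (SE 0.319, edgeR unadjusted p 0.00413, adjusted p 0.261), below the threshold by edgeR and past it by DESeq2 (1.68, adjusted p 0.00268) and by edgeR's other test, the likelihood ratio (1.70, adjusted p 0.002). Its adjusted p ran from 0.00181 to 0.563 over the alternatives. Map3k5, the kinase ASK1 that thioredoxin holds inactive, was at -0.37 (SE 0.231) and Prkab1, an AMP kinase subunit, at -0.28 (SE 0.186), both lower in each treated library. Prkaa2, the catalytic subunit of AMP kinase that prevails in muscle, was at 0.14 (SE 0.351) with overlapping groups. The inflammasome gene Nlrp3 had 6 counts or fewer in every library.

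In the Mondo and Max network, 9 of 10 genes were tested and the median was -0.02. Mlxip, which encodes the MondoA that acts on Txnip and Arrdc4, had 71.3 and 76.4 scaled CPM under vehicle and 95.9 and 91 after dexamethasone (log2 fold change 0.34, SE 0.121, edgeR unadjusted p 0.0424, adjusted p 0.799). Mxi1, a Max-binding repressor, was lower in both treated libraries, with 15.6 and 17.1 against 10.3 and 12.5 (-0.52, SE 0.183, edgeR unadjusted p 0.0403, adjusted p 0.79). Mxd4 was at 0.47 (SE 0.215) without overlap and Mga at 0.14 (SE 0.237) with overlap. Mlxipl, the gene of the liver-type relative ChREBP, had at most 3 counts in any library.

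The ubiquitin ligases showed small differences. Of 11 NEDD4 family ligases and adaptors, 10 were tested, with log2 fold changes from -0.28 to 0.06 and a median of -0.07. Nedd4, the most abundant, had 962 and 827 scaled CPM under vehicle and 800 and 718 after dexamethasone (-0.24, SE 0.154), and Smurf2 had 205 and 202 against 172 and 174 (-0.23, SE 0.115). Smurf1 was at -0.24 (SE 0.254) with overlapping groups. With the replicate number as a block, edgeR called Nedd4 (-0.23, adjusted p 0.0316), Smurf2 (-0.23, adjusted p 0.0386) and Smurf1 (-0.25, adjusted p 0.042) lower. That fit called 5.78% of all tested genes lower. In the thioredoxin list, all 10 genes were tested with a median of 0.05, where Txnl1 (0.21, SE 0.121) and Txn2 (0.25, SE 0.154) were higher and Prdx1 (-0.15, SE 0.132) lower in both treated libraries, and Txnrd1, the cytosolic reductase, overlapped (0.07, SE 0.314). Of the ESCRT genes, 9 of 10 were tested with a median of 0.06. The ATPase gene Vps4b was at 0.25 (SE 0.158) without overlap, Stam at -0.24 (SE 0.198) and Chmp4b at -0.08 (SE 0.14) with overlap. Pdcd6ip was listed at 0 in every library and was not read as silent.

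The other arrestins were represented by 6 tested genes of 10 names, with a median of -0.07. Arrb2, a beta-arrestin that ends G-protein signalling at receptors, had 5.47 and 6.43 scaled CPM under vehicle and 3.9 and 4.84 after dexamethasone (-0.44, SE 0.237, edgeR unadjusted p 0.127, adjusted p 1). Arrb1 was at -0.12 (SE 0.213) and Vps26a, an arrestin-fold subunit of retromer, at 0.09 (SE 0.233), both with overlap. Arrdc5, the remaining alpha-arrestin, had 1 count in all, in dexamethasone replicate 2.

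**Figure D5:**
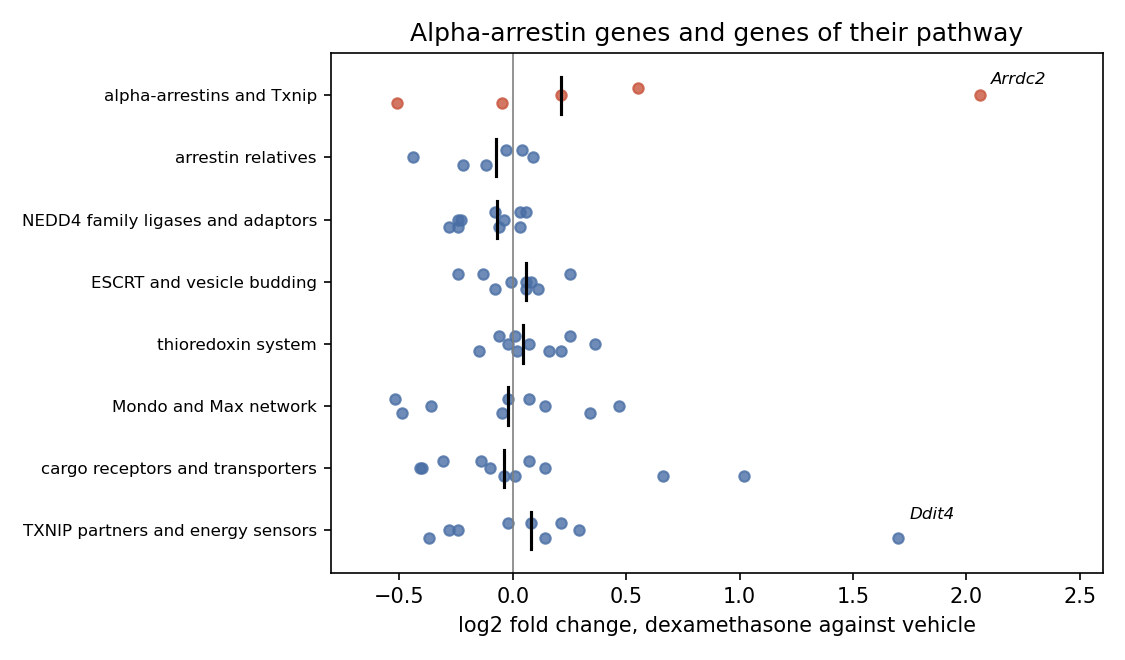
Log2 fold change of dexamethasone against vehicle (x axis) of every tested gene in the family (red) and in the 7 partner lists (blue), 1 point per gene with a black bar at each median. Most partners lie near 0, with Ddit4 at 1.70 farthest to the right among them and Arrdc2 at 2.06 in the family.

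The genes most like each member in pattern were sought among 10771 genes with a mean of at least 100 counts. Likeness was the Euclidean distance between log2 scaled CPM values centred per gene over the 4 libraries, where 0 would be the same pattern. Nearest to Arrdc2 were Chst3 (0.228), Edn1 (0.274) and Bmp8a (0.385), which have log2 fold changes of 1.94, 1.80 and 1.84. Arrdc3 was closest to Acsl4 (0.0677), Prps1 (0.0743) and Tmem167 (0.149). For Txnip the closest were Myl6b (0.0386), Chil1 (0.0485) and Eef2 (0.0526). Arrdc4 had Elfn1 (0.0411), Dcn (0.0737) and G0s2 (0.101) beside it, and Arrdc1 had Fbxw9 (0.00547), Alg12 (0.00997) and Cenpo (0.0255). Within the family the closest pair was Arrdc3 and Txnip, at 0.772, and the farthest Arrdc2 and Txnip, at 2.84. With 4 libraries many genes share a pattern closely, so these distances only describe the libraries.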

How the data were processed

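Chromatin RNA of 2 vehicle and 2 dexamethasone libraries was sequenced. The labels name both a stranded total RNA kit and a stranded mRNA kit. The authors deposited raw counts of reads per gene in 1 table. The submitters' processing notes name TopHat2 2.0.13, SAMtools 1.1, HTSeq 0.6.1, DESeq2 1.18.1 and mm9, with no roles. The annotation, the strand setting and whether introns were counted are not given in the sources used here. Columns were matched to samples by name and groups taken from the titles.

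Of 23333 rows, 51 that repeat a gene and its counts were used once. filterByExpr (minimum count 10, total 15) left 13285 features. They were tested with edgeR 4.0.16 (quasi-likelihood, TMM, group only, Benjamini-Hochberg threshold 0.05) in R 4.3.3. Residual degrees of freedom were 2 and prior 2.56. Fold changes carry the SE implied by the F statistic. Alternatives used DESeq2 1.42.0, limma 3.58.1, other scalings and filters, a replicate block and each library left out.

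Gene lengths and neighbours came from GENCODE M21 (GRCm38), matched by Ensembl identifier (99.5% of tested genes), and upstream sequences from RefSeq. No genome coordinates other than those of the RefSeq windows are given, because the builds differ. The members, lists and motifs were chosen with earlier results of these data known. The genes named were the members, Fkbp5, the 3 smallest unadjusted p-values and the most abundant gene of each list, annotated neighbours present in the table and the 3 nearest patterns per member; a few others (such as Slc2a1) were chosen after their values were seen. A listed gene that the rule would name is not reported here.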

Additional observations from a re-analysis of the deposited data

How the results depend on the processing

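Across 9 alternative scalings, filters and tests every member kept its direction, with log2 fold changes of -0.09 to -0.03 for Arrdc1, 2.00 to 2.09 for Arrdc2, 0.52 to 0.59 for Arrdc3, -0.58 to -0.49 for Arrdc4 and 0.16 to 0.23 for Txnip. Arrdc2 passed the threshold under DESeq2's Wald test (2.06), the likelihood ratio test (2.07) and without vehicle replicate 2 (2.80). Fits without 1 library, in which the lone library of a group is assumed to vary like the others, gave -0.33 to 0.29 for Arrdc1, 1.63 to 2.80 for Arrdc2, 0.19 to 1.02 for Arrdc3, -0.70 to -0.31 for Arrdc4 and -0.66 to 0.97 for Txnip. Each such fit leaves the replicates unbalanced, so these ranges also carry the gap between replicates 1 and 2. What else moved them was not tested.

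The replicate number is not said to mark a shared day or culture, and with 2 pairs this cannot be settled from the data. Across 13285 genes, the gap between replicates 1 and 2 under vehicle had a correlation of r = 0.734 with the gap after dexamethasone. With the number as a block, edgeR called Arrdc2 (2.00, adjusted p 0.00239) and Arrdc3 (0.58, adjusted p 0.0073, against 0.653 to 1 in every other alternative) but not Txnip (0.18, adjusted p 0.177), Arrdc4 (-0.54, adjusted p 0.335) or Arrdc1 (-0.06, adjusted p 0.859), among 913 genes higher (6.87%) and 768 lower (5.78%), with 1 residual degree of freedom. Of the 64 tested partner genes it called 5 higher and 8 lower. Mlxip, Mxd4, Ddit4 and Vps4b were among the higher ones. Mxi1, Notch1, Egfr, Nedd4, Smurf1 and Smurf2 were among the lower ones.

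Against 5 higher and 0 lower genes in the whole table, DESeq2 called 235 and 53, the likelihood ratio test 243 and 45, limma-voom 0 and 0, and a test without a filter 23 higher. Single libraries left out gave 4 to 84 higher and 0 to 109 lower, the most without vehicle replicate 2, and 24 and 28 higher without dexamethasone replicates 1 and 2. Partner genes called higher numbered 1 under DESeq2 and 1 under the likelihood ratio test, and 0 to 0 in either direction without single libraries. Vehicle levels per kb with the longest transcript were 2.18 for Arrdc1, 5.23 for Arrdc3 and 0.286 for Arrdc4. With the whole span, chosen after seeing the data, they were 0.367, 1.71 and 0.0912. By library size only Arrdc4 was at 0.281. Among 41 other genes examined, 488 values kept direction and side, 20 became stronger and 1, Fkbp5 under limma-voom, weaker. The 23 that changed sign did so without a single library, with ranges of -0.27 to 0.02 for Arrb1, -0.13 to 0.37 for Vps26a, -0.55 to 0.01 for Smurf1, -0.18 to 0.04 for Chmp4b, -0.27 to 0.44 for Txnrd1, -0.08 to 0.39 for Mga, -0.23 to 0.55 for Prkaa2, -0.06 to 0.60 for Mymx, -0.07 to 0.30 for Tnnt3, -0.99 to 0.90 for Ttn, -0.11 to 0.50 for Cdk1, -0.53 to 0.08 for Pecam1, -0.26 to 0.14 for Cd68, -0.11 to 0.07 for Ehmt1, -0.49 to 0.81 for Gm15441 and -0.46 to 0.02 for Hjv.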

Other observations

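Ratios of counts between 2 members in the same library are free of any scaling. Of the 10 pairs, 5 had ratios that did not overlap between the groups, and Arrdc2 was in 4 of them. The pairs share members, so these 4 largely restate the separation of Arrdc2 itself. How often ratios of other gene pairs separate was not computed, so the count says nothing about the family. For each count of Arrdc4, Arrdc2 had 1.62 and 3.71 counts under vehicle and 13.9 and 18.8 after dexamethasone. For each count of Arrdc3 it had 0.0658 and 0.266 against 0.33 and 0.512. The separation from Txnip was narrow, with 0.184 in vehicle replicate 2 and 0.195 in dexamethasone replicate 1. Arrdc1 had 1.59 and 1.06 counts for each count of Arrdc2 under vehicle and 0.233 and 0.319 after dexamethasone. The remaining pair was Arrdc3 over Arrdc4, at 24.6 and 14 under vehicle and 42 and 36.8 after dexamethasone. The 2 genes tied to glucose sensing, Arrdc4 and Txnip, had overlapping ratios of 0.021 and 0.0495 under vehicle and 0.0141 and 0.0287 after dexamethasone. These ratios were not tested, since 2 libraries against 2 allow no small exact p.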
